A study of Mus musculus with 8 samples.

Results

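The genes described here were 33 markers of T and B lymphocytes, chosen by gene symbol among 36432 gene identifiers in transcriptomes of mouse pancreas. All 33 were present. By their known roles they fell into 19 T cell genes, 3 cytotoxic genes, 7 B cell genes and 4 genes shared by lymphocytes and other leukocytes. Whole pancreas RNA was sequenced as poly(A)+ libraries from 8 mice of mixed strain aged 6 to 8 weeks. All 8 carried Ptf1a-Cre +/KI, which drives recombination in the cells of the pancreas that have expressed Ptf1a, an acinar and progenitor transcription factor, and not in lymphocytes. Controls 1 to 4 carried this allele alone, and the other 4 mice also carried Gata6 lox/lox, in which Cre is meant to inactivate the transcription factor Gata6.

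The labels were checked first against Gata6 (ENSMUSG00000005836). Levels are given as FPKM divided by 100000, called rescaled FPKM, because the deposited values were not on the usual per-million scale. Gata6 was at 2.76, 2.12, 2.62 and 2.45 rescaled FPKM in controls 1 to 4 and at 4.81, 5.12, 4.90 and 4.12 in the Gata6 lox/lox libraries 1 to 4. It was higher in the libraries labelled as deleted, by 0.72 ± 0.11 (SE) on the log2 scale (limma, Benjamini-Hochberg adjusted p = 0.0443, exact permutation p = 0.0286). Since the gene-level value goes against the label and does not separate the exons, these mice are called labelled libraries 1 to 4, and every direction below is that of the labels. The fragments implied by the deposited confidence intervals came to between 6020901 and 7304521 in the controls and between 4815873 and 7451554 in the labelled libraries. The titles carry the prefix BKD for control 1 and labelled libraries 1, 3 and 4, ASK for controls 2 to 4 and BSH for labelled library 2, so prefix and genotype partly coincided. Levels of 10 acinar genes were far lower in labelled libraries 1 and 3 than elsewhere. They summed to 463749, 443994, 420927 and 331993 rescaled FPKM in controls 1 to 4 and to 2208, 170154, 29213 and 214310 in labelled libraries 1 to 4. The part of that loss in the lymphocyte values was not tested.

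T cells recognise peptides through the T cell receptor, whose signal passes through the CD3 chains to the kinases Lck and Zap70 and the adaptor Lat. B cells bind antigen through membrane immunoglobulin, which signals through the paired chains Cd79a and Cd79b. The healthy pancreas holds few lymphocytes, whereas lymph nodes embedded in or beside it are packed with both kinds and can be taken along in a dissection. In whole tissue, more cells of a type and more RNA per cell cannot be told apart.

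Promoter sequences of 3 genes that the results turn on are shown because the proximal promoters of these T and B cell genes hold the same Ets-type motif. They are Cd79a of the B cell receptor, Cd3e of the T cell receptor and Il7r, the receptor for the survival cytokine interleukin 7. Each run is the 100 bases before the RefSeq start (assembly GRCm38.p6, not the NCBIM37 build of the expression tables), read 5′ to 3′ on the gene's strand, with capitals marking the motif ACTTCCNG on either strand.
Cd79a promoter (chr7:24897397-24897496, plus strand): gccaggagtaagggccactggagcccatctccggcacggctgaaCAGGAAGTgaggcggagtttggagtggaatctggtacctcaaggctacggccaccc
Cd3e promoter (chr9:45009612-45009711, minus strand): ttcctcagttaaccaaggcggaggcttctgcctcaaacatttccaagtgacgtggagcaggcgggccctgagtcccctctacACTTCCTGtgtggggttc
Il7r promoter (chr15:9529877-9529976, minus strand): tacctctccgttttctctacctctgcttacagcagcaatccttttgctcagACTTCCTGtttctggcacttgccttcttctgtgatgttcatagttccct

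RefSeq promoters, from 250 bases before to 50 after the start, were matched for 22 of the 33 genes, with 30 entries in all. ACTTCCNG was found on either strand in 8 of the 30 entries (26.67%), in Cd3e, Cd79a, Cr2, Il7r, Lck, Lef1 and Tcf7, and in 9.531% of all 32851 promoters of that length. The purine-rich Ets form GAGGAAGT, which cannot match at the same place, was in 2 entries, of Cd37 and Cd5, and in 3.202% of all promoters. The Runx motif TGTGGTT was in 4 entries, of Gzma, Gzmb, Il7r and Lck, against 5.269% of all promoters. CTTTGAA, a Tcf/Lef motif, was in 1 entry, of Cd27, against 5.135%. The octamer ATTTGCAT was in 0 of the 30 entries and in 1.735% of all promoters. These matches describe letters in a window and are not evidence of binding.

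The first comparison asked how the lymphocyte genes differed between labelled and control pancreas. The mean level was higher in the labelled libraries for 33 of the 33 genes, but no member passed the adjusted test. It was also higher for 11 of 12 pan-leukocyte genes and 13 of 15 myeloid genes, so the direction was not particular to lymphocyte genes. Over all 11860 genes tested, 57.9% had a positive log2 difference. Of the 33, 12 averaged 1 rescaled FPKM or more across the 8 libraries and entered the limma fit of 11860 genes on log2(rescaled FPKM + 1). They were Cd3g, Cd4, Cd2, Tcf7 and Trbc2 among the T cell genes, Cd79a, Cd79b and Ms4a1 among the B cell genes, and all 4 shared genes. At a limma Benjamini-Hochberg adjusted p under 0.05, 0 of the 12 were called, where 0.219% of all genes were called higher. The adjusted p ranged from 0.0885 for Cd4 to 0.364 for Tcf7. At an unadjusted p under 0.05, 8 of the 12 were higher (Cd3g, Cd4, Cd2, Cd79b and the 4 shared genes), against 17.9% of all genes. Median log2 differences were 0.90 over the 5 tested T cell genes, 0.65 over the 3 tested B cell genes and 1.31 over the 4 shared genes, beside 0.10 over all genes tested. However, Cd3g, Cd4, Cd2, Trbc2 and Ltb reached the minimum only through the labelled libraries. Their means were 0.549, 0.384, 0.476, 0.836 and 0.843 in the controls and 2.04, 1.99, 1.60, 2.61 and 2.58 in the labelled libraries. The minimum thus favoured higher labelled levels in the unadjusted count and in the medians of tested genes. Without an expression minimum the medians were 0.32 over 19 T cell genes, 0.26 over 3 cytotoxic genes and 0.57 over 7 B cell genes, beside 0.04 over all genes. Every labelled library exceeded every control for 4 of the 33 genes, all of them T cell genes (Cd4, Cd2, Cd27 and Il7r), beside 8.28% of all detected genes. The 21 genes under the minimum were Cd3e, Cd3d, Cd8a, Cd8b1, Cd5, Cd6, Cd7, Cd27, Cd28, Lck, Zap70, Lat, Lef1, Il7r, Gzma, Gzmb, Nkg7, Cd22, Cr2, Blk and Pax5.

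**Figure D1:**
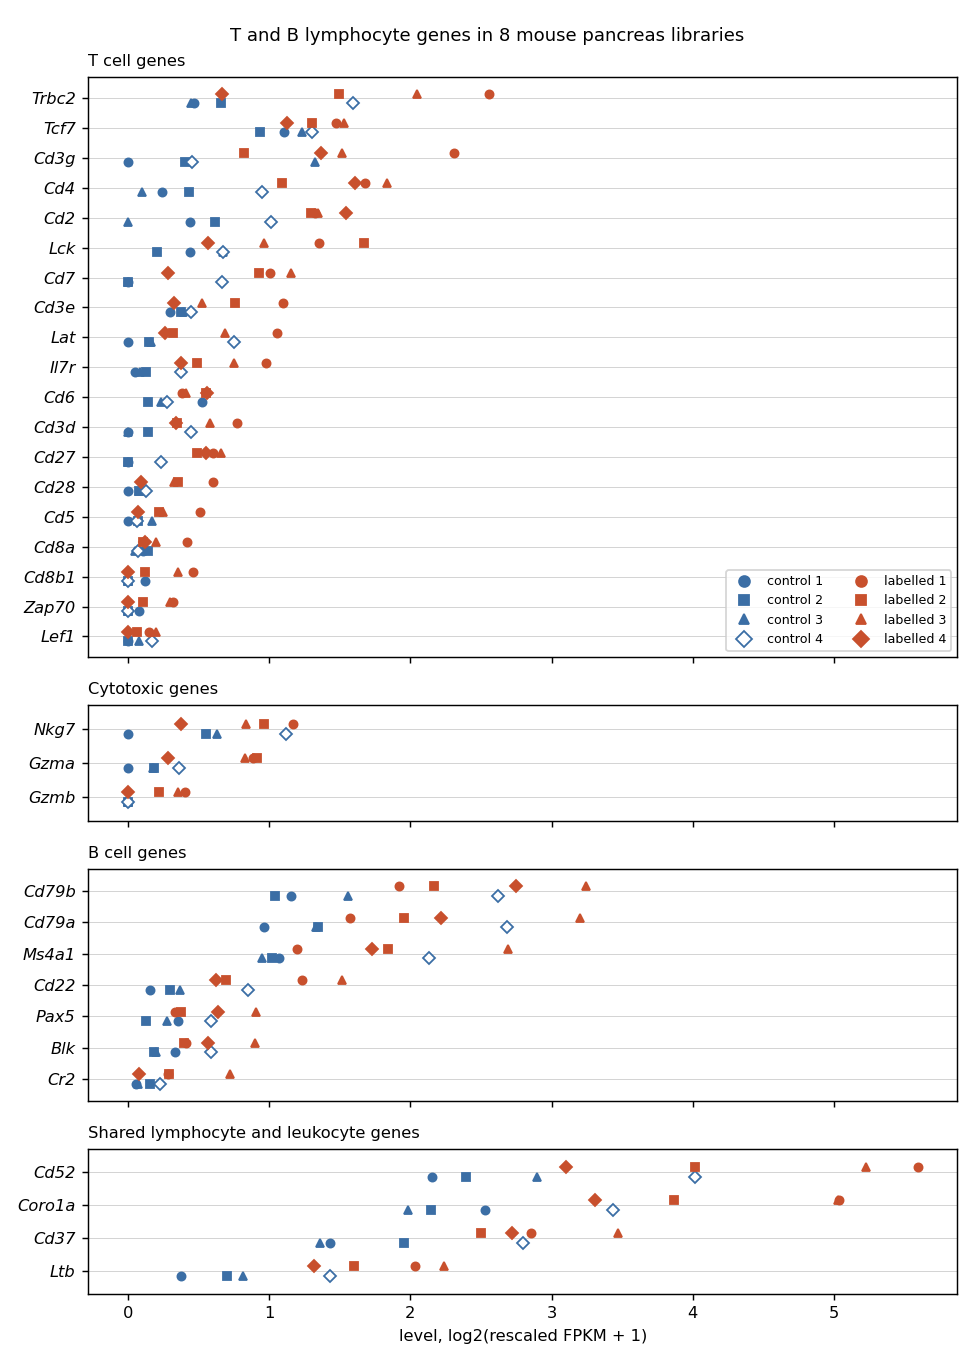
Levels of the 33 lymphocyte genes by role, as log2(rescaled FPKM + 1), with 1 point per library, controls in blue and labelled libraries in red. Control 4, the open diamond, was the highest control for all 7 B cell genes and all 4 shared genes, and for 13 of the 19 T cell genes.

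Within the T cell receptor complex, transcripts were few in every control. Cd3e (ENSMUSG00000032093, NCBIM37 chr9:44806826-44817673), an invariant CD3 chain, was at 0.231, 0.299, 0.313 and 0.364 rescaled FPKM in controls 1 to 4, values that rested on 2, 3, 3 and 5 fragments. In labelled libraries 1 to 4 Cd3e was at 1.15, 0.694, 0.437 and 0.257, from 52, 10, 17 and 3 fragments. Labelled libraries 1 to 3 lay above the controls and labelled library 4 lay among them. Its neighbour Cd3d was listed at 0 in controls 1 and 3, at 0.105 and 0.366 in controls 2 and 4, and at 0.710, 0.275, 0.498 and 0.268 in the labelled libraries. Cd3g was at 0, 0.326, 1.5 and 0.369 in the controls and at 3.95, 0.764, 1.86 and 1.58 in the labelled libraries, a log2 difference of 0.96 ± 0.38 (SE; limma adjusted p = 0.143). The Cd3g values were the least secure of the CD3 chains, since they rested on at most 1.3 implied fragments in any control. Trbc2, a constant region of the receptor's beta chain whose near-identical copy Trbc1 can share its reads, was at 0.381, 0.577, 0.363 and 2.02 in controls 1 to 4. It was at 4.90, 1.82, 3.14 and 0.585 in labelled libraries 1 to 4, a log2 difference of 0.90 ± 0.43 (SE; limma adjusted p = 0.191). Control 4 exceeded labelled libraries 2 and 4 for Trbc2, and labelled library 4 was level with control 2.

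Of the coreceptors, Cd4, which binds MHC class II, stood highest. Cd4 (ENSMUSG00000023274, NCBIM37 chr6:124814710-124838239) was at 0.181, 0.350, 0.0712 and 0.934 rescaled FPKM in controls 1 to 4 and at 2.20, 1.13, 2.57 and 2.06 in labelled libraries 1 to 4. The groups did not overlap, and the log2 difference of 1.12 ± 0.25 (SE) had the smallest adjusted p among the 12 tested genes (limma adjusted p = 0.0885). The deposited intervals were wide, however, spanning 0 to 3.20 in control 4 and 0 to 4.98 in labelled library 4. Cd8a, a chain of the MHC class I coreceptor, was at 0.0789, 0.104, 0.0363 and 0.0508 in the controls and at 0.334, 0.0759, 0.146 and 0.0873 in the labelled libraries. Cd8a groups overlapped, since labelled libraries 2 and 4 lay below control 2. Its partner Cd8b1 was above 0.05 in control 1 alone among the controls, at 0.0897, and reached 0.379 in labelled library 1.

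Among adhesion and costimulatory receptors, Cd2, which binds CD48 on other cells, was at 0.358, 0.531, 0 and 1.01 rescaled FPKM in controls 1 to 4. In the labelled libraries Cd2 was at 1.5, 1.45, 1.54 and 1.92, all above control 4, with a log2 difference of 0.86 ± 0.24 (SE; limma adjusted p = 0.104). Cd27, a costimulatory receptor of the TNF receptor family, was listed at 0 in controls 1 to 3 and at 0.179 in control 4. Cd27 was between 0.407 and 0.578 in the labelled libraries, from at most 7.6 implied fragments. Cd7 likewise was listed at 0 in controls 1 to 3 and at 0.587 in control 4, and it was at 1.01, 0.902, 1.22 and 0.216 in the labelled libraries. Cd28, Cd5 and Cd6 overlapped between the groups, and their highest levels in any library were 0.519, 0.424 and 0.477.

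The signalling genes were highest in labelled libraries 1 or 2. Lck, the kinase that starts T cell receptor signalling, was at 0.356, 0.153, 0.595 and 0.595 rescaled FPKM in controls 1 to 4 and at 1.55, 2.19, 0.955 and 0.484 in labelled libraries 1 to 4. Lat, the adaptor downstream, was at 0, 0.108, 0.121 and 0.684 in the controls and at 1.08, 0.247, 0.613 and 0.197 in the labelled libraries. Control 4 thus lay above labelled libraries 2, 3 and 4 for Lat. Zap70 was listed at 0 in controls 2 to 4 and in labelled library 4, and was at most 0.248.

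Il7r set the labelled libraries above the controls by a small margin. It was at 0.0360, 0.0953, 0.0610 and 0.298 rescaled FPKM in controls 1 to 4 and at 0.975, 0.404, 0.682 and 0.301 in labelled libraries 1 to 4, with 14 implied fragments in control 4 and 12 in labelled library 4. The transcription factor Tcf7 varied less. It was at 1.15, 0.909, 1.35 and 1.47 in the controls and at 1.78, 1.46, 1.90 and 1.18 in the labelled libraries, a log2 difference of 0.21 ± 0.16 (SE; limma adjusted p = 0.364). Its spread over the controls, as the SD on the log2 scale, was at the 33.7 percentile of all tested genes, whereas that of Trbc2 was at the 90.3 percentile. The related factor Lef1 was at most 0.148 in any library.

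Cytotoxic transcripts were low in all libraries and absent from the limma fit. Nkg7, a granule membrane protein of killer cells, was at 0, 0.466, 0.552 and 1.17 rescaled FPKM in controls 1 to 4 and at 1.25, 0.952, 0.787 and 0.3 in labelled libraries 1 to 4. Gzma, a granule protease, was at 0, 0.136, 0.133 and 0.285 in the controls and at 0.850, 0.887, 0.776 and 0.220 in the labelled libraries. For both genes labelled library 4 lay within the controls, while the other labelled libraries exceeded the controls for Gzma. Gzmb, a related protease, was listed at 0 in all 4 controls and in labelled library 4, and at 0.324, 0.166 and 0.280 in labelled libraries 1 to 3. The largest of these Gzmb values rested on 18 fragments.

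The B cell genes were ordered differently over the libraries. All 7 had their highest level in labelled library 3 and their highest control level in control 4, and none separated the groups. Cd79a (ENSMUSG00000003379, NCBIM37 chr7:25682400-25687216), a signalling chain of the B cell receptor, was at 0.951, 1.55, 1.51 and 5.44 rescaled FPKM in controls 1 to 4, from 10, 19, 16 and 80 fragments. It was at 1.98, 2.87, 8.19 and 3.66 in labelled libraries 1 to 4, from 96, 43, 368 and 49 fragments. Control 4 exceeded 3 of the 4 labelled libraries, and the log2 difference was 0.65 ± 0.44 (SE; limma adjusted p = 0.325). Cd79b, the partner chain, was at 1.23, 1.06, 1.94 and 5.15 in the controls and at 2.78, 3.50, 8.49 and 5.72 in the labelled libraries, a log2 difference of 0.93 ± 0.40 (SE; limma adjusted p = 0.166). Ms4a1, the surface protein CD20, was at 1.10, 1.03, 0.929 and 3.39 in the controls and at 1.29, 2.59, 5.45 and 2.32 in the labelled libraries, a log2 difference of 0.57 ± 0.37 (SE; limma adjusted p = 0.298).

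The less abundant B cell genes also had their highest control level in control 4. Cd22, a sialic acid-binding inhibitory receptor, was at 0.117, 0.228, 0.294 and 0.799 rescaled FPKM in controls 1 to 4 and at 1.35, 0.621, 1.86 and 0.538 in labelled libraries 1 to 4. Blk, a B cell kinase, was at 0.261, 0.134, 0.151 and 0.503 in the controls, and Pax5, the factor that maintains B cell identity, was at 0.280, 0.0949, 0.209 and 0.507. In labelled library 3 Blk reached 0.870 and Pax5 0.872, and for both genes control 4 lay above labelled libraries 1 and 2. Cr2, the complement receptor of B cells and follicular dendritic cells, was at most 0.170 in the controls and at 0.652 in labelled library 3. Labelled library 1, which held the highest level of 11 of the 19 T cell genes, held the lowest labelled level of 4 of the 7 B cell genes.

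Of the 4 shared genes, Cd52, Coro1a and Cd37 had higher mean levels over the 8 libraries than any other member, and Ltb was lower than Cd79a, Cd79b, Ms4a1 and Trbc2. Cd52, a small surface glycoprotein of lymphocytes and other leukocytes, was at 3.45, 4.25, 6.45 and 15.2 rescaled FPKM in controls 1 to 4 and at 47.3, 15.2, 36.4 and 7.59 in labelled libraries 1 to 4. The log2 difference for Cd52 was 1.62 ± 0.61 (SE; limma adjusted p = 0.133), with control 4 level with labelled library 2 and above labelled library 4. Coro1a, an actin regulator of leukocytes, was at 4.77, 3.43, 2.96 and 9.83 in the controls and at 31.8, 13.6, 31.6 and 8.91 in the labelled libraries, a log2 difference of 1.79 ± 0.47 (SE; limma adjusted p = 0.103). Cd37, a tetraspanin, was at 1.70, 2.87, 1.57 and 5.94 in the controls and at 6.24, 4.67, 10.1 and 5.60 in the labelled libraries (log2 difference 1.00 ± 0.34, SE; limma adjusted p = 0.122). Ltb, a lymphotoxin chain needed to build lymph nodes, was at 0.299, 0.624, 0.757 and 1.69 in the controls and at 3.10, 2.03, 3.71 and 1.5 in the labelled libraries (log2 difference 0.97 ± 0.28, SE; limma adjusted p = 0.106). For all 4 genes control 4 exceeded labelled library 4, so the groups overlapped.

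Leaving out 1 library changed these counts. Without labelled library 4, 5 of 11 tested members passed the limma adjusted test, namely Cd4, Trbc2, Ltb, Cd52 and Coro1a, all higher. Calls over all genes rose from 49 to 2592 of 11895, and 1383 of these were higher. Labelled library 4 was the lowest labelled library for 21 of the 33 genes, so leaving it out favoured higher labelled levels for them. Cd4, Trbc2 and Ltb had reached the minimum only through the labelled libraries. Without control 4, 0 members passed. Genes with no overlap between the groups rose from 4 to 19 of the 33, including 5 of the 7 B cell genes, beside 11.5% of detected genes. Control 4 was the highest control for 26 of the 33 genes and for 20.7% of detected genes. Leaving it out therefore favoured the members over genes in general. Within the BKD titles, 1 control against 3 labelled libraries, medians were 1.29 for the tested T cell genes and 1.37 for the B cell genes. Within the ASK and BSH titles, 3 controls against 1 labelled library, they were 0.37 over 2 T cell genes and 0.43 over 3 B cell genes.

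The second question was how far the controls differed among themselves. Control 4 had the highest control level for 26 of the 33 genes, where it was the highest control for 20.7% of detected genes. It was singled out after the values were seen, so these counts are descriptions. The deposited 95% interval of control 4 lay above those of controls 1 to 3 for 5 of the 33 genes, beside 0.398% of detected genes. These were 4 of the 7 B cell genes (Cd79a, Cd79b, Ms4a1 and Cd22), 0 of the 19 T cell genes, and Cd52. Separation of intervals needs fragments, however. In control 4 only Tcf7 and Il7r of the T cell genes rested on more than 8 implied fragments, at 24.3 and 14. The 4 B cell genes rested on 30.4 to 89.4, so the T and B counts cannot be compared. For Cd79a the interval of control 4 ran from 4.22 to 6.65 rescaled FPKM, against upper bounds of 2.26 and 2.27 in controls 2 and 3. Control 4 held 3.51 times the next control's level for Cd79a, 3.09 times for Ms4a1, 2.65 times for Cd79b, 2.72 times for Cd22 and 2.36 times for Cd52. Some T cell genes had ratios as large, on fewer implied fragments in control 4. The ratio was 5.67 for Lat (8 fragments), 3.5 for Trbc2 (7.8) and 3.5 for Cd3d (5.3). It was 3.13 for Il7r (14) and 2.67 for Cd4 (0.68). Control 4 was the highest control for 13 of the 19 T cell genes.

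The tested genes were then ranked by how far control 4 stood above the highest of controls 1 to 3. By more than 1 on the log2 scale, 157 genes were higher in control 4 than in any other control, and 116, 129 and 75 genes were so in controls 1, 2 and 3. Of the first 20 genes for control 4, 19 rested on at most 2 implied fragments and 0 were lymphocyte members. They were SNORD58 on 2 entries, Igkv5-39, Snord4a, Mir186, mt-Tv, SNORD18, AC122209.1, AC128668.1, Mir705, SNORD60, AC152062.1, Snord69, Snord13, Mirlet7d, Mir425, U6, CT009718.2, SNORD91 and SNORD12. Restricting the ranking to 7507 genes with at least 20 implied fragments in control 4, a choice made after seeing the data, brought up immunoglobulin genes. The cut was set on control 4 itself, so it favoured genes that stand high there. The share of immunoglobulin genes over all 7507 was not counted. Of the first 20 genes in that ranking, 7 were immunoglobulin genes, among them Igkv5-39, Ighv9-3, Ighg1 and Iglv1, and Cd79a stood at rank 16. Cd52, Ms4a1, Cd79b, Coro1a and Cd37 stood at ranks 27, 30, 31, 38 and 46. Only 7 members entered this ranking, and all 7 were under 20 implied fragments in each of controls 1 to 3. Tcf7, at rank 897, was the only T cell gene among them, so the ranking does not compare T with B cell genes. Trbc2, which the cut removed, stood at rank 164 of all 11860 tested genes. Reg3a and Reg3b, secreted lectins of the Reg family, also stood in the first 5.

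Genes that mark lymph node stroma and vessels had their highest control level in control 4 about as often as detected genes in general. Over 10 such genes, control 4 was the highest control for 2, Cxcl13 and Ccl19, beside 20.7% of detected genes. Several of the 10 lay near 0 in the controls, which limits what they can show. Ccl19 was at 0.172, 0.249, 0.123 and 0.486 rescaled FPKM in controls 1 to 4. The median log2 difference of control 4 from the highest of the other controls was −0.11 for these 10 genes. It was 0.48 for the 7 B cell genes, 0.07 for the 19 T cell genes and 0.88 for the 4 shared genes. The same median was 0.40 for 8 adipocyte genes, with control 4 the highest control for 7. For 10 acinar genes it was −0.64, with control 4 the highest control for 0. A higher level in control 4 was thus not particular to lymphocyte genes. The 1 added before taking logs shrinks differences between low levels, where most T cell genes lay. Ccl21a, a chemokine of the T cell zone whose near-identical copies can share its reads, was at 1.04, 1.29, 1.29 and 1.04 rescaled FPKM in controls 1 to 4 and at 7.92, 2.91, 2.94 and 0.897 in labelled libraries 1 to 4. Glycam1, a ligand made by high endothelial venules of lymph nodes, was listed at 0 in all controls and was at most 0.404 in the labelled libraries. Madcam1, a vascular addressin, was at 0.200, 0.270, 0 and 0.225 in the controls and at 0.894, 0.325, 1.48 and 0.124 in the labelled libraries. Cxcl13, the chemokine of B cell follicles, was at 19.3, 10.2, 11.8 and 21.5 in the controls and at 5.54, 9.98, 44.9 and 54.8 in the labelled libraries. Lyve1, of lymphatic endothelium, was between 2.47 and 2.86 in the controls and at 3.26, 1.81, 7.15 and 3.45 in the labelled libraries. Ccl19, Ccl21a, Glycam1 and Madcam1 were named after their values were seen.

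**Figure D2:**
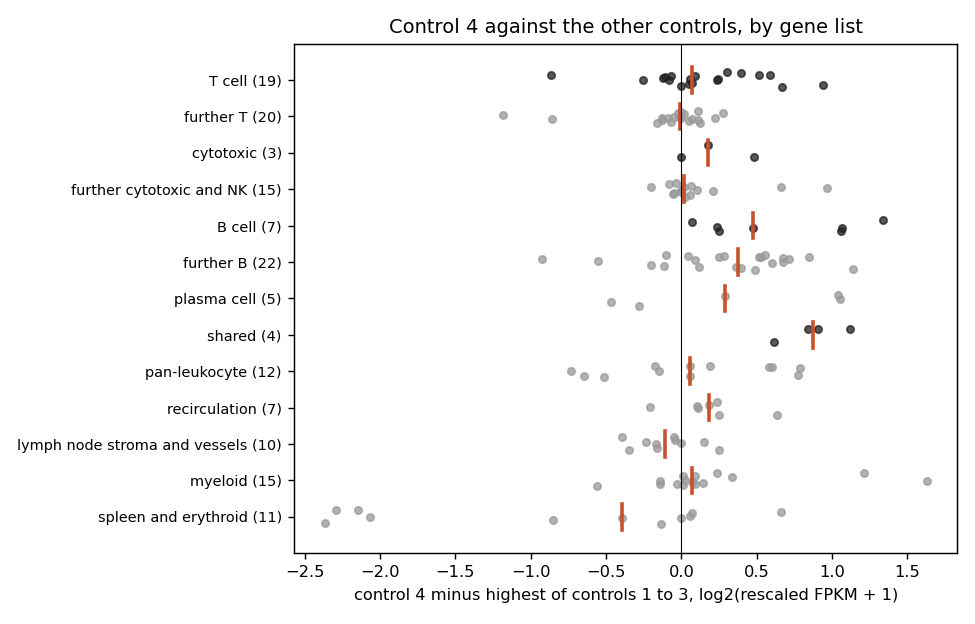
Control 4 minus the highest of controls 1 to 3, as a difference in log2(rescaled FPKM + 1), with 1 point per gene, grouped by list with the number of genes in brackets, and red bars at list medians. The B cell median was 0.48 and the T cell median 0.07, while that of lymph node stroma and vessel genes was −0.11. Adipocyte and acinar genes, with medians of 0.40 and −0.64, are not drawn. The added 1 shrinks differences between low levels, where most T cell genes lay.

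T and B cell transcripts were then set against each other within each library, a ratio that does not depend on the scaling between libraries. Summed T cell levels were 3.36, 3.77, 4.83 and 9.41 rescaled FPKM in controls 1 to 4 and 23.6, 13.0, 17.6 and 10.2 in labelled libraries 1 to 4. Summed B cell levels were 3.98, 4.21, 5.09 and 16.0 in the controls and 8.20, 10.4, 26.4 and 13.3 in the labelled libraries. The ratio of the T to the B sum was 0.845, 0.895, 0.948 and 0.590 in the controls and 2.88, 1.24, 0.666 and 0.765 in the labelled libraries. Labelled libraries 1 and 2 lay above all controls and labelled libraries 3 and 4 lay among them. Leaving out Cd3g and Cd4, which rested on few implied fragments in the controls, gave 0.799, 0.734, 0.639 and 0.508 in the controls and 2.13, 1.06, 0.498 and 0.492 in the labelled libraries. Labelled libraries 1 and 2 again lay above all controls, while labelled libraries 3 and 4 now lay just below the lowest, control 4.

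**Figure D3:**
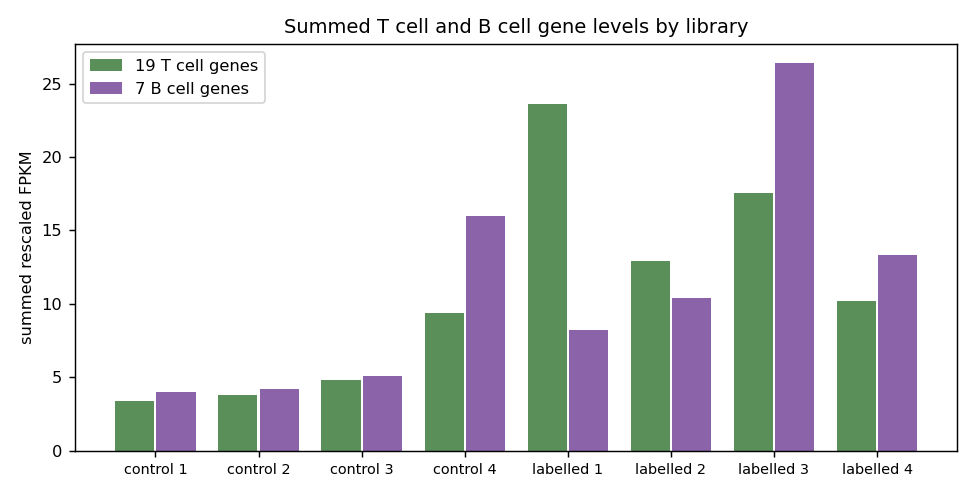
Summed rescaled FPKM of the 19 T cell genes (green) and the 7 B cell genes (purple) in each library. The T sum was the larger in labelled libraries 1 and 2, and the B sum was the larger in all 4 controls and in labelled libraries 3 and 4.

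Fragment counts gave the precision of that balance. For 6 members the implied fragments lay within 0.02 of a whole number in every library, among them Cd3e, Cd5 and Lat of the T cell genes and Cd79a and Blk of the B cell genes. Of the fragments of these 5 genes, the T cell genes held 2 of 17 in control 1, 5 of 27 in control 2, 6 of 25 in control 3 and 14 of 108 in control 4. The T shares were 11.8% (95% exact Clopper-Pearson interval 1.46 to 36.4%), 18.5% (6.3 to 38.1%), 24% (9.36 to 45.1%) and 13.0% (7.27 to 20.8%). In labelled library 1 they held 128 of 253 fragments, 50.6% (44.3 to 56.9%), above each control's share though its interval overlapped that of control 3. The shares were 24.6% (15.1 to 36.5%) in labelled library 2, 10.6% (7.99 to 13.6%) in labelled library 3 and 8.96% (3.36 to 18.5%) in labelled library 4, all overlapping the controls' intervals. These intervals cover counting error only.

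**Figure D4:**
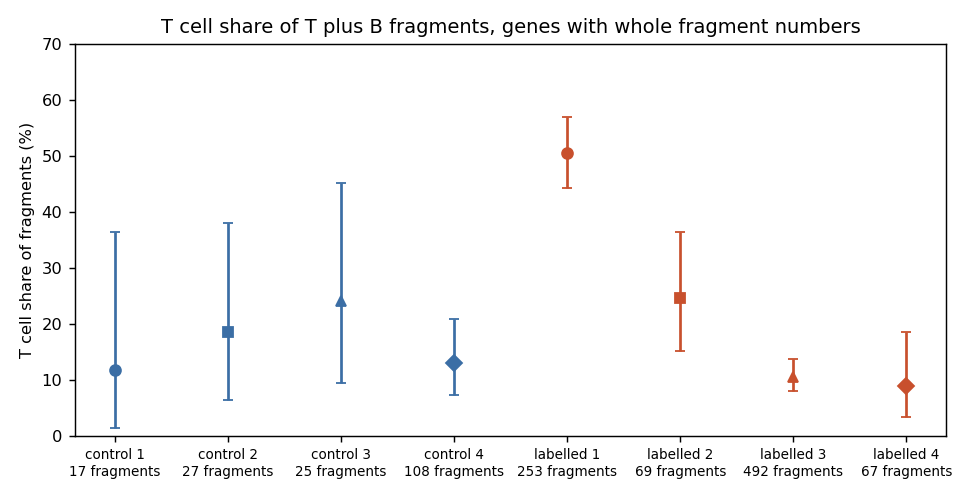
Share of T cell genes (Cd3e, Cd5 and Lat) among the fragments of these genes and the B cell genes Cd79a and Blk, in percent, for each library. Bars are 95% exact Clopper-Pearson intervals, and labelled library 1 stood at 50.6% while the other 7 libraries stood between 8.96% and 24.6%.

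Other gene lists placed the lymphocyte values beside those of other cells. Over 20 further T cell genes, 2 were tested, Thy1 and Trac, and 0 passed the limma test, adjusted or unadjusted, with a median log2 difference of 0.58. Over 22 further B cell genes, 14 were tested and 0 passed, 7 at an unadjusted p under 0.05, with a median of 0.71. Cd74, the MHC class II chaperone of all antigen-presenting cells, was at 51.2, 50.4, 45.3 and 93.2 rescaled FPKM in the controls and at 639, 188, 296 and 77.6 in the labelled libraries. Ighm, the heavy chain of IgM, was at 41.6, 34.1, 64.7 and 144 in the controls and at 31.0, 94.8, 345 and 93.7 in the labelled libraries, lowest of all in labelled library 1. Of 15 further cytotoxic and natural killer genes only Ccl5, a chemokine of effector lymphocytes, was tested (limma adjusted p = 0.115), and Klrd1 was next in level. Of 7 genes of lymphocyte recirculation 4 were tested, with Klf2 and S1pr1 the highest, and of 5 plasma cell genes 2 were tested, Igj and 2010001M09Rik. None of these passed limma's adjusted test, 3 recirculation genes and 0 plasma cell genes were under 0.05 unadjusted, and the medians were 0.67 and 0.73. Of the 4 tested lymph node genes 0 passed, adjusted or unadjusted, with a median of 0.40.

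In labelled library 1 the T cell sum and the leukocyte sum were both the highest of all, and the B cell sum was the lowest labelled value. Summed levels of 12 pan-leukocyte genes, led by Laptm5 and Lsp1, were 51.9, 47.3, 33.1 and 56.2 rescaled FPKM in the controls and 205, 69.8, 183 and 54.4 in the labelled libraries. Control 4 stood at 1.08 times the next control in that sum, against 1.95 times for the T cell sum and 3.13 times for the B cell sum. Single genes of that list differed from the sum. Control 4 was the highest control for 7 of the 12 and not for the rest. Among the 7, Ptprc was at 2.77 in control 4 against at most 1.20 in the other controls, and Rac2 at 2.74 against at most 1.17. T cell sums were between 6.47% and 16.7% of the pan-leukocyte sum in the controls and between 9.58% and 18.7% in the labelled libraries. B cell sums were between 7.66% and 28.4% in the controls, highest in control 4, and between 3.99% and 24.5% in the labelled libraries, lowest in labelled library 1. Sums of 15 myeloid genes, led by Lyz2 and C1qb, ran from 130 to 221 in the controls and were 919, 294, 849 and 237 in the labelled libraries. No pan-leukocyte or myeloid gene was called by limma, 8 of 12 and 12 of 15 were higher at an unadjusted p under 0.05, and the medians were 0.97 and 1.57. Of 6 tested genes of spleen and red cells, with Hbb-b1 and Hba-a1 the highest, 0 passed and 1 was higher unadjusted (median 0.84). All 10 acinar genes, led by Cela2a and Cela1, were lower on average in the labelled libraries, 0 called and 7 lower unadjusted, with a median of −3.37. Of 8 adipocyte genes 2 passed and rose, Pck1 by 1.97 ± 0.20 and Cidec by 1.95 ± 0.29 on the log2 scale (SE; limma adjusted p = 0.00852 and 0.0363). The part of leukocytes in general, and of fat tissue, in the lymphocyte values was not tested.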

How the data were processed

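Poly(A)+ RNA of 8 whole mouse pancreases was sequenced. The authors deposited 1 FPKM table per mouse, made per the submitters' processing notes with CASAVA 1.8, TopHat2 2.0.4, Bowtie and Cufflinks 2.0.1 on mm9/NCBIM37. The FPKM values were divided here by 100000. Groups came from the genotype labels, 4 against 4. Implied fragments were computed from the deposited interval bounds as (2 × FPKM / (upper bound − FPKM)) squared. They approximate depth, and a wide interval from uncertain assignment to transcripts lowers them. Genes with a mean of at least 1 entered limma 3.58.1 (R 4.3.3, trended variances) on log2(rescaled FPKM + 1), two-sided, Benjamini-Hochberg over all 11860 genes. The scale leaves out counts, so no count model was used, and a fold on it understates changes of low genes. The 8 genes without an estimate in some library were left out.

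Members, gene lists and tests were chosen with earlier results of these data known. Named genes were the members that passed, or else the highest by mean level in each role (5 T cell, 2 cytotoxic, 4 B cell and all 4 shared), the highest and lowest log2 differences, up to 4 passing genes or else the 2 highest of each other list, and the 20 genes that stood highest in control 4 over the other controls. Others were added for a count or to show a role. Alternatives changed the pseudocount, the minimum, the scaling, the variance model, a prefix covariate and the libraries used.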

Additional observations from a re-analysis of the deposited data

Results flagged for a closer look

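In 10 of 74 sets of 4 libraries, the highest or lowest library stood apart from the other 3 by a share of the range over Dixon's 95% critical value. Chance gives about 5% of such sets if values are normally distributed, which sets with many values of 0 are not, and members share libraries. In the controls, control 4 stood apart above the rest for Cd7 (1.0 of the range), Cd27 (1.0), Trbc2 (0.871), Cd79a (0.867) and Ms4a1 (0.931), and for the summed B cell genes (0.907) and the summed shared genes (0.932). Control 1 stood apart for Cd8b1 (0.981) and Zap70 (1.0), both at under 0.1 rescaled FPKM. Cd7, Cd27 and Zap70 were listed at 0 in the other 3 controls, so any value above 0 gives a share of 1.0. Those values rested on 2.7, 0.62 and 0.51 implied fragments. In the labelled libraries, library 4 stood apart below the rest for Gzma (0.834).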

How the results depend on the processing

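No paired analysis was possible because the replicate numbers only name the libraries in order and pair no mice. Of 23 alternatives, 22 called 0 members, and leaving out a library gave between 0 and 5. Calls over all genes were 49. They were 27 with equal-sum scaling, 6 with scaling by implied totals, 5 with the prefix as covariate, 4 within BKD titles, 14 without labelled libraries 1 and 3, and 86 within ASK and BSH titles. Leaving out 1 library gave between 9 and 2592. Members without overlap numbered 2 with equal-sum scaling (4.31% of detected genes), 9 with implied totals (33.7%), 27 within BKD titles (33.3%) and 18 within ASK and BSH titles (28.6%), and between 4 and 19 without 1 library. The 19, without control 4, stood beside 11.5% of detected genes, and the 16 without labelled library 4 beside 17.0%. Leaving out control 4, the highest control for 26 of the 33 genes, favoured the first of these counts. The T cell median was 2.00 with a pseudocount of 0.1, 0.33 with 5, 0.32 without a minimum, 1.59 with implied totals, 1.29 within BKD titles, 0.067 without labelled libraries 1 and 3 and 0.37 within ASK and BSH titles, and between 0.61 and 1.08 without 1 library. The B cell median was 1.53 with implied totals, 1.37 within BKD titles, and between 0.33 and 1.02 without 1 library. The shared median was 2.47 with implied totals, and between 1.10 and 1.65 without 1 library. Implied totals moved the all-gene median from 0.10 to 1.12. Tcf7 was at −0.018 under quantile normalization. The cytotoxic genes gave no median since none was tested, and a minimum of 5 left no T cell gene. The cause of these shifts was not tested, except that smaller sets hold fewer libraries or genes. Most T cell levels in the controls rest on under 10 implied fragments, which limits what they can show.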
